A study of Mus musculus with 30 samples.

Results

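The miRNAs described here are 4 names on the array, mmu-miR-199a-3p, mmu-miR-199a-5p, mmu-miR-199b* and mmu-miR-214, mature microRNAs (miRNAs) of the miR-199 and miR-214 genes. They were picked out by their names and are 4 of the 1079 mouse miRNAs on the array. Heart RNA of female C57BL/6 mice was hybridised in 1 colour, each mouse on an array of its own. The tissue was a random heart section that held both ventricles, so the RNA came from all cell types of the wall together. Mice were acquired at 5 to 6 weeks of age and received 1 intratracheal instillation. The 3 exposed groups received 162 µg of Printex 90, a carbon black of nanosized particles, suspended in vehicle. The 3 control groups received the vehicle alone, which was saline with cell-free lung lavage fluid from mice of the strain. Mice were killed 1, 3 or 28 days later. Day 1 had 4 vehicle mice and 6 exposed mice. Day 3 had 6 vehicle mice and 5 exposed mice. Day 28 had 4 vehicle mice and 5 exposed mice. The scanner file of exposed day 3 replicate 3 held no signal, so 29 arrays entered every fit and 4 of them were exposed day 3 hearts. No deleted gene or transgene is named in the labels.

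A miRNA gene is read into a hairpin RNA, from which enzymes cut a 5′ arm and a 3′ arm, and an arm held by an Argonaute protein represses messenger RNAs that pair with its seed. The miR-199a gene Mir199a-2 and the gene for miR-214 lie next to each other in the long non-coding RNA Dnm3os. They are known to be transcribed together, mostly in mesenchymal cells such as fibroblasts. In the heart, miR-199a and miR-214 are known for changes in hypertrophy, hypoxia and fibrosis.

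The mature sequences, which show what each probe set can and cannot tell apart, are those of RefSeq (GRCm38.p6), and 3 of the 4 members matched an entry. The seed, bases 2 to 8 from the 5′ end, is in capitals. The array name miR-214 is the arm now called miR-214-3p, and miR-199b* is the arm now called miR-199b-5p.
miR-199a-3p: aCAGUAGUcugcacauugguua
miR-199a-5p: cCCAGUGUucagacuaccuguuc
miR-214-3p: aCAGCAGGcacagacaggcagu

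The 3 printed seeds differed from one another. The mature sequence of miR-199a-3p was found in 3 hairpins, those of Mir199a-1, Mir199a-2 and Mir199b, and is identical in miR-199b-3p. A signal for miR-199a-3p therefore sums RNA from 3 genes, and miR-199a-5p sums Mir199a-1 and Mir199a-2. By their names miR-199b* comes from Mir199b and miR-214 from Mir214. The Mir199b hairpin, however, holds a stretch that matches 22 of the 23 bases of miR-199a-5p, its seed CCAGUGU included. Whether the probes of miR-199a-5p and miR-199b* also bind each other's RNA was not tested. One other RefSeq miRNA, miR-761, carries the seed of miR-214, and it was detected on 0 of the 29 arrays. The hairpins of the genes on chromosomes 1 and 2 are shown 5′ to 3′, with the mature arms listed by RefSeq in capitals. Those of Mir199a-2 and Mir199b hold the shared 3′ arm, and that of Mir214 does not. The hairpin of Mir199a-1, which holds the shared arm too, is not shown.
Mir199a-2: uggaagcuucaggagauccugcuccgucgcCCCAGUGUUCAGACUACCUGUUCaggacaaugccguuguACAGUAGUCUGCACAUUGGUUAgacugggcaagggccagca
Mir199b: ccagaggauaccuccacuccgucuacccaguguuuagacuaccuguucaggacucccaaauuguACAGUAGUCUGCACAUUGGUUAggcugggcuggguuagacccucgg
Mir214: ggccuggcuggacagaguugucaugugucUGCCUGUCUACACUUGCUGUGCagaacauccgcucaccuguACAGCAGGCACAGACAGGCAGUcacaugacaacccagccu

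In GRCm38.p6, Mir199a-2 lies at chr1:162217814-162217923 and Mir214 at chr1:162223368-162223477, both on the plus strand, with 5444 bases between the hairpins. Both lie within the spans of Dnm3os and Dnm3. Mir199b lies at chr2:32318460-32318569 on the plus strand, within the span of Dnm1. Mir199a-1 lies at chr9:21496495-21496564 on the minus strand, within the span of Dnm2.

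Arrays showed between 18.4% and 27.5% of their spots well above background, and 0 spots were saturated. Of the 1079 mouse miRNAs, 306 passed the detection filter and were tested. Processed signal was averaged per probe and scaled between arrays, and a level is the log2 of that signal, averaged over a miRNA's probes. Levels were not compared between miRNAs, because probes differ in response. Heart muscle miRNAs were present on every array, with a median log2 signal of 16.01 for miR-1a and 8.81 for miR-208a-3p. Whether fibroblasts were the source of the members could not be checked in RNA from whole sections. In such samples fewer cells of a type and less RNA per cell cannot be told apart.

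Each member had 2 probes, and 7 of these 8 probes were detected on all 29 arrays. The remaining one, for miR-214, was detected on 28. After group means were removed, the probes of a miRNA moved together over the 29 arrays, with a Pearson correlation of 0.996 for miR-199a-3p, 0.988 for miR-199b*, 0.959 for miR-214 and 0.814 for miR-199a-5p. The opposite arm of Mir214, miR-214*, had 4 probes and was detected on 0 arrays. Mir214 was thus read through its 3′ arm alone. Both arms of miR-199a were read, but the signal of the 3′ arm also includes RNA from Mir199b.

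The level of miR-199a-3p, the 3′ arm shared by the miR-199 genes, was 9.77, 9.73, 9.87 and 9.91 in the 4 vehicle hearts of day 1. Exposed hearts of day 1 ran from 9.55 through a median of 9.82 to 10.46. The 6 exposed values enclosed all 4 vehicle values, and replicate 5 was the high one. Vehicle hearts of day 3 ran from 9.66 through 9.79 to 10.66. Exposed hearts of day 3 gave 10.11, 9.61, 9.80 and 9.96. Vehicle replicate 5 of day 3 was the highest of all 29 arrays, and the ranges of both groups overlapped. On day 28 vehicle hearts gave 9.66, 9.88, 9.79 and 10.50, and exposed hearts 9.83, 9.85, 9.73, 9.90 and 10.02. Vehicle replicate 4 lay above all 5 exposed hearts and the other 3 vehicle hearts lay among or below them. Group means ran from 9.82 ± 0.08 (SD, n = 4) in vehicle day 1 hearts to 9.96 ± 0.37 (SD, n = 4) in vehicle day 28 hearts. Between these lay exposed day 28 at 9.86, exposed day 3 at 9.87, exposed day 1 at 9.89 and vehicle day 3 at 9.92. Neighbours in that order were closer together than the residual SD of 0.28.

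The level of miR-199a-5p, the opposite arm from Mir199a-1 and Mir199a-2, was 7.36, 7.32, 7.38 and 7.19 in vehicle hearts of day 1. Exposed hearts of day 1 ran from 7.10 through a median of 7.26 to 7.86. Exposed replicate 5 was again the high one, and the remaining exposed hearts reached no higher than 7.35. Vehicle hearts of day 3 ran from 7.19 through 7.27 to 8.08, and exposed hearts gave 7.62, 7.18, 7.24 and 7.22. The same 2 hearts as for the 3′ arm, vehicle replicate 5 and exposed replicate 1, were the highest of their groups. On day 28 vehicle hearts gave 7.25, 7.43, 7.50 and 7.78, and exposed hearts 7.38, 7.43, 7.28, 7.42 and 7.39. The 5 exposed values of day 28 lay within the vehicle range. Group means ran from 7.31 ± 0.08 (SD, n = 4) in vehicle day 1 hearts to 7.49 ± 0.22 (SD, n = 4) in vehicle day 28 hearts. Exposed day 3 and exposed day 1 hearts both averaged 7.32, exposed day 28 hearts 7.38 and vehicle day 3 hearts 7.41, again closer together than the residual SD of 0.24.

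The level of miR-199b*, the 5′ arm of Mir199b, was 9.17, 9.16, 9.25 and 9.24 in vehicle hearts of day 1. Exposed hearts of day 1 ran from 9.02 through a median of 9.17 to 9.28. Here exposed replicate 5, at 9.27, was not the highest of its group, unlike for the other 3 members. Vehicle hearts of day 3 ran from 9.01 through 9.26 to 10.02, and exposed hearts gave 9.55, 8.98, 9.21 and 9.25. Vehicle replicate 5 and exposed replicate 1 of day 3 were the high ones for this miRNA too. On day 28 vehicle hearts gave 9.10, 9.28, 9.24 and 9.86, and exposed hearts 9.15, 9.31, 9.09, 9.24 and 9.41. The groups overlapped, with vehicle replicate 4 above all other day 28 hearts. Group means ran from 9.18 ± 0.10 (SD, n = 6) in exposed day 1 hearts to 9.37 ± 0.33 (SD, n = 4) in vehicle day 28 hearts. In ascending order, vehicle day 1 averaged 9.21, exposed day 28 9.24, exposed day 3 9.25 and vehicle day 3 9.34, with steps smaller than the residual SD of 0.24.

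The level of miR-214, from the gene beside Mir199a-2, was 6.00, 5.99, 6.03 and 6.07 in vehicle hearts of day 1. Exposed hearts of day 1 ran from 5.83 through a median of 6.02 to 6.78. The 4 vehicle hearts were close together, and exposed hearts lay on both sides of them. Vehicle hearts of day 3 ran from 5.78 through 5.99 to 6.84, and exposed hearts gave 6.34, 5.85, 6.03 and 5.93. Exposed replicate 1 was the only exposed day 3 heart above the vehicle mean. On day 28 vehicle hearts gave 5.80, 6.20, 6.03 and 6.62, and exposed hearts 6.21, 6.07, 6.09, 6.11 and 6.26. The exposed hearts lay within the vehicle range. Group means ran from 6.02 ± 0.03 (SD, n = 4) in vehicle day 1 hearts to 6.16 ± 0.35 (SD, n = 4) in vehicle day 28 hearts. Exposed day 3 averaged 6.04, vehicle day 3 6.09, exposed day 1 6.12 and exposed day 28 6.15, with steps smaller than the residual SD of 0.28.

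**Figure D1:**
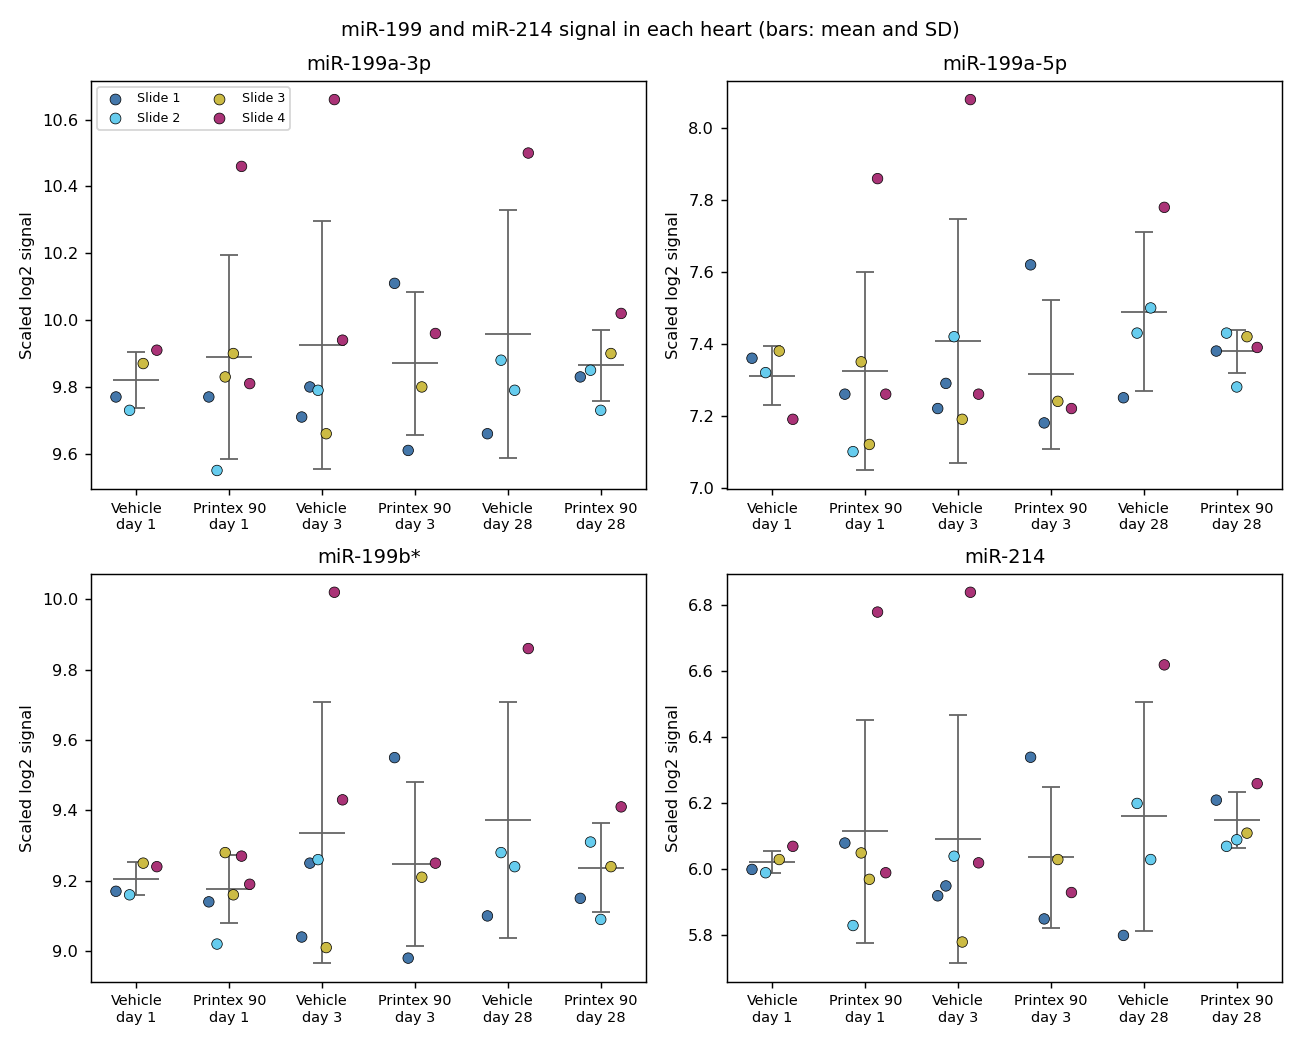
Scaled log2 signal of the 4 members in each of the 29 hearts, with points coloured by slide and bars for the group mean and SD. Vehicle day 3 replicate 5 is the highest heart in every panel (10.66, 8.08, 10.02 and 6.84), and the groups overlap in each.

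The first question of the design was whether the instillation changed these miRNAs. On day 1 the difference of exposed minus vehicle hearts, on the log2 scale, was 0.07 (SE 0.18) for miR-199a-3p, 0.01 (SE 0.15) for miR-199a-5p, -0.03 (SE 0.15) for miR-199b* and 0.09 (SE 0.18) for miR-214. None of these 4 differences passed the test, with adjusted p between 0.902 and 0.965 in limma with Benjamini-Hochberg adjustment over the 306 miRNAs. Of the 6 exposed hearts, 3 lay above the vehicle mean for miR-199a-3p and for miR-214, and 2 for miR-199a-5p and for miR-199b*. Over all miRNAs tested, 0% were called on day 1, with 2 at an unadjusted p under 0.05, and the median difference was -0.07. The members' median was 0.04, with 3 of 4 above 0. Without exposed replicate 5 the differences became -0.05 for miR-199a-3p, -0.09 for miR-199a-5p and -0.04 for miR-214, all 3 now below 0. Without vehicle replicate 4 that of miR-199a-5p also turned, to -0.03. Without exposed replicate 2 that of miR-199b* turned to 0.0025, and that of miR-199a-3p reached 0.14, of miR-199a-5p 0.06 and of miR-214 0.15.

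On day 3 all 4 differences lay below 0, though above 0 without scaling between arrays, at -0.05 (SE 0.18) for miR-199a-3p, -0.09 (SE 0.15) for miR-199a-5p, -0.09 (SE 0.15) for miR-199b* and -0.06 (SE 0.18) for miR-214. None passed the test (limma, adjusted p = 0.999 for each). For miR-199a-3p 2 of the 4 exposed hearts lay above the vehicle mean, and for the other members 1 did. The share of all miRNAs called was 0%, with 1 at an unadjusted p under 0.05, and the median over all was 0.03 against -0.07 for the members. Without vehicle replicate 5 the differences turned to 0.09, 0.04, 0.05 and 0.09 in the same order. Without exposed replicate 1 they became -0.13, -0.20, -0.19 and -0.16. Without exposed replicate 2 those of miR-199a-3p and miR-214 turned to 0.03 and 0.0072. The signs on day 3 thus changed with single hearts.

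On day 28 the differences were -0.09 (SE 0.18) for miR-199a-3p, -0.11 (SE 0.16) for miR-199a-5p, -0.13 (SE 0.16) for miR-199b* and -0.01 (SE 0.18) for miR-214. None passed the test, with adjusted p between 0.906 and 0.994 in limma. No exposed heart of the 5 exceeded the vehicle mean for miR-199a-5p, 1 did for miR-199a-3p and for miR-199b*, and 2 did for miR-214. The share of all miRNAs called was again 0%, with 1 at an unadjusted p under 0.05, and the median over all was 0.01 against -0.10 for the members. Without vehicle replicate 4 the differences became 0.09, -0.01, 0.03 and 0.14, and without vehicle replicate 1 they became -0.19, -0.19, -0.22 and -0.13. That of miR-214, nearest to 0, was positive in 4 of the fits that left out 1 heart.

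Averaged over the days, the exposure difference was -0.03 (SE 0.10) for miR-199a-3p, -0.06 (SE 0.09) for miR-199a-5p, -0.08 (SE 0.09) for miR-199b* and 0.01 (SE 0.10) for miR-214. All 4 had an adjusted p of 0.994 in limma, and 5, 4, 3 and 5 of the 15 exposed hearts lay above the vehicle mean. Of all miRNAs 0% were called and 0 reached an unadjusted p under 0.05. The intervals state how large a change the arrays could have missed. In fold, the 95% interval of the averaged difference ran from 0.848 to 1.14 for miR-199a-3p, from 0.844 to 1.08 for miR-199a-5p, from 0.831 to 1.07 for miR-199b* and from 0.867 to 1.17 for miR-214. On single days the intervals were wider, from 0.722 to 1.22 for miR-199a-3p on day 28. The exposure difference itself did not pass a test of change between days. For the comparisons of day 3 with day 1, day 28 with day 1 and day 28 with day 3, 0% of all miRNAs were called, with 2, 3 and 1 at an unadjusted p under 0.05, and the members' adjusted p was at least 0.882.

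**Figure D2:**
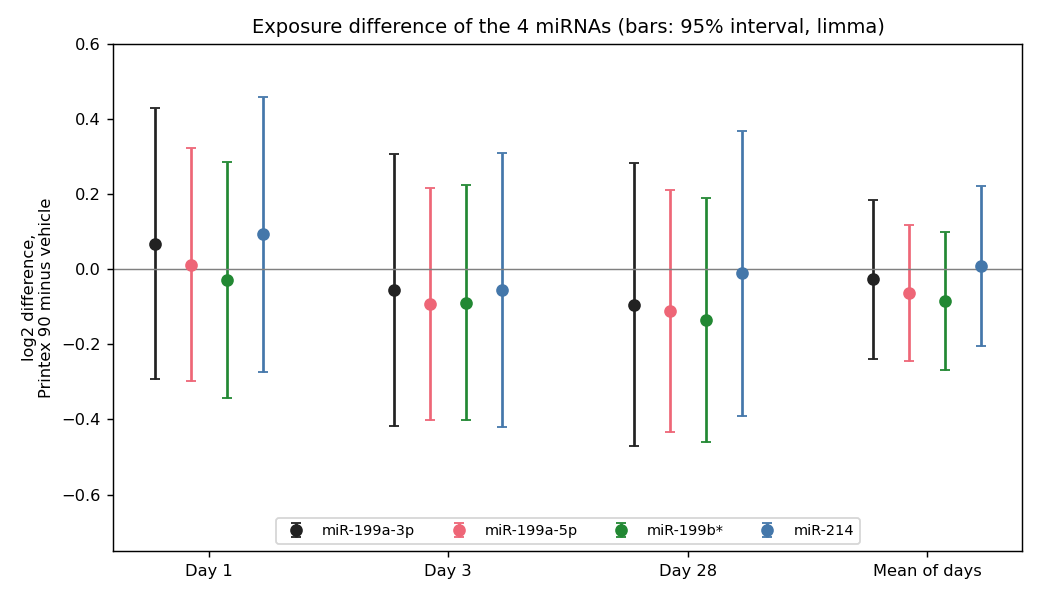
Exposure difference of the 4 members, exposed minus vehicle on the log2 scale, for each day and averaged over the days, with 95% intervals from limma. All 16 intervals include 0, and those of the averaged difference are the narrowest, from -0.24 to 0.18 for miR-199a-3p.

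The second question was time after instillation, so that the later hearts also came from older mice. In vehicle hearts day 28 exceeded day 1 by 0.14 (SE 0.19) for miR-199a-3p, 0.18 (SE 0.16) for miR-199a-5p, 0.17 (SE 0.17) for miR-199b* and 0.14 (SE 0.19) for miR-214. Without scaling miR-199a-5p alone stayed above 0. None passed, with adjusted p between 0.755 and 0.791 in limma, while 1.96% of all miRNAs (6 of 306) were called. Between 2 and 3 of the 4 day 28 hearts lay above the day 1 mean for each member. Without vehicle day 28 replicate 4 the differences became -0.04, 0.08, 0.0035 and -0.014 in the same order, and the count of all miRNAs called fell to 3. Without vehicle day 28 replicate 1 they became 0.24, 0.26, 0.26 and 0.26.

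Other fibroblast and matrix miRNAs were listed with knowledge of earlier results of these data: miR-21, which rises in fibrotic hearts, the miR-29 family, which represses collagens, and their opposite arms. Of the 8 listed, 7 were on the array and 6 were tested. Between vehicle day 1 and day 28, 4 of the 6 passed, all higher on day 28, against 0 of the 4 members. All 4 were arms of the miR-29 family, and whether their probes also bind each other's RNA was not tested. They were miR-29b at 0.54 (SE 0.10, adjusted p = 0.0012), miR-29c at 0.57 (SE 0.11, adjusted p = 0.00311), miR-29c* at 0.42 (SE 0.09, adjusted p = 0.00771) and miR-29a at 0.51 (SE 0.12, adjusted p = 0.0229), by limma. All 4 stayed above 0 under the 14 alternatives, from 0.25 to 0.75. None of the 4 passed without scaling (adjusted p = 0.841 for each) or with scaling over all probes (adjusted p = 0.581 for each). With quantile normalization miR-29b (adjusted p = 0.0589) and miR-29c* (0.362) missed the threshold, and with normexp background correction miR-29c* did (0.902). In the authors' deposited value table, fitted the same way, miR-29a (0.0800), miR-29b (0.122) and miR-29c* (0.122) missed it. Without vehicle day 28 replicate 4 the adjusted p was 0.191 for miR-29a and 0.0699 for miR-29c*. Without vehicle day 1 replicate 2 it was 0.0819 and 0.0536, and miR-29a also missed the threshold without vehicle day 1 replicate 3 (0.0742) or 4 (0.0672). miR-21 differed by -0.02 (SE 0.12) and miR-29a* by 0.47 (SE 0.24), which did not pass. The list's median was 0.49, the members' 0.15 and that of all miRNAs -0.05. In exposed hearts, day 28 minus day 1, 2 of the 6 passed, against 0 of the 4 members. These were miR-29b at 0.33 (SE 0.08, adjusted p = 0.0458) and miR-29c at 0.38 (SE 0.10, adjusted p = 0.0498), by limma. Both lay near the threshold of 0.05, and the list's median in exposed hearts was 0.29. Whether the members differed from the miR-29 family in their change with time was not tested. For the averaged exposure difference 0 of the 6 were called and their median was -0.05, as was the members'.

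**Figure D3:**
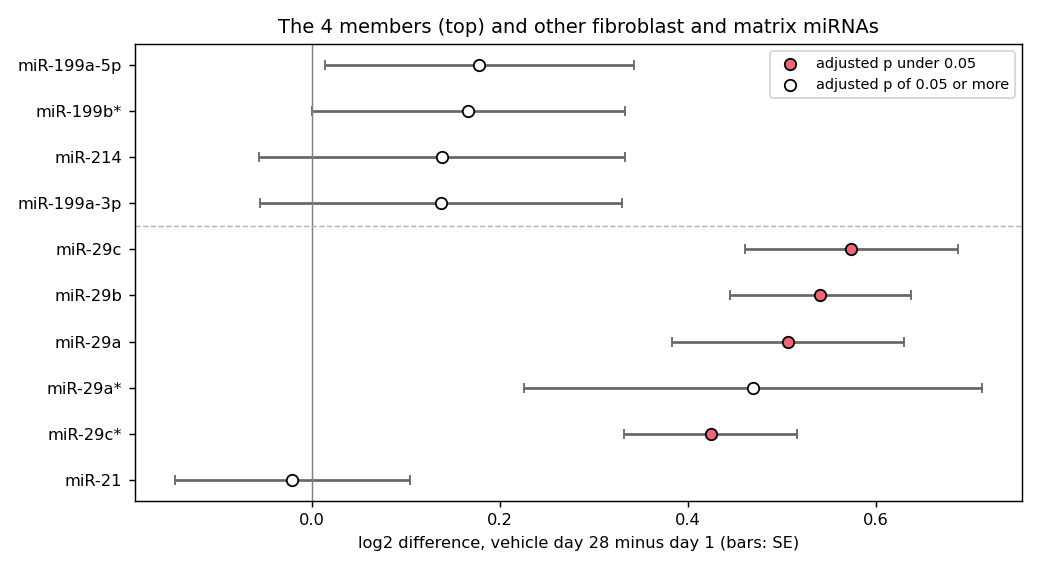
Log2 difference of vehicle day 28 minus day 1 for the 4 members and the 6 other tested fibroblast and matrix miRNAs, with SE bars from limma and filled points past the threshold. The members lie between 0.14 and 0.18 and none passed, while 4 of the miR-29 arms passed at 0.42 to 0.57.

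The other comparisons of days called 0 members. Of all miRNAs, 0.654% were called between vehicle day 28 and day 3, 1.31% between exposed day 28 and day 1 and 0.327% between exposed day 28 and day 3. Between day 3 and day 1, 0% were called in vehicle hearts, with 18 at an unadjusted p under 0.05, and 0% in exposed hearts, with 0. Members had adjusted p-values of at least 0.738 in vehicle hearts and at least 0.845 in exposed hearts in these comparisons (limma).

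Within groups the members varied together from heart to heart. After group means were removed, the Pearson correlation over 29 arrays was 0.95 between miR-199a-3p and miR-214, 0.94 between miR-199a-5p and miR-214 and 0.89 between the arms of miR-199a. It was 0.89 between miR-199a-3p and miR-199b*, 0.83 between miR-214 and miR-199b* and 0.81 between miR-199a-5p and miR-199b*. The Spearman correlations were 0.78, 0.78, 0.68, 0.89, 0.67 and 0.70 in that order, and without the 2 hearts farthest from the middle Pearson's values were 0.90, 0.86, 0.76, 0.93, 0.66 and 0.80. The 2 hearts were picked by 1 member of each pair. They were vehicle day 3 replicate 5 and exposed day 1 replicate 5, except for miR-214 with miR-199b*. For that pair vehicle day 28 replicate 4 was left out in place of exposed day 1 replicate 5, so its 0.66 is not like the other values. Within single slides the 6 correlations ran from 0.37 to 0.98. These are descriptions without a test, since the points share arrays and 1 scaling factor each. The log2 ratio of a pair of members varied less than either alone, with SDs of 0.09 for miR-199a-3p over miR-214 and 0.16 for miR-199b* against miR-214, where the members' own residual SDs lay between 0.24 and 0.28. The median residual SD over all 306 miRNAs was 0.27.

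The members' mean stood highest above its group mean in 4 hearts. The mean of the 4 members lay 0.71 above its group mean in vehicle day 3 replicate 5, 0.47 in exposed day 1 replicate 5, 0.45 in vehicle day 28 replicate 4 and 0.29 in exposed day 3 replicate 1. The other 25 hearts lay between -0.29 and 0.11. Both vehicle and exposed mice were thus among the high hearts. The first 3 of these hearts were on slide 4, the last on slide 1. All 4 members averaged above 0 on slide 4 (0.26 for miR-199a-3p, 0.14 for miR-199a-5p, 0.20 for miR-199b* and 0.22 for miR-214, 8 arrays) and below 0 on the other 3 slides, from -0.14 to -0.04. Apart from the 3 high hearts, the members' mean on slide 4 lay between -0.07 and 0.11 relative to the group mean. With slide as a fixed block the exposure differences of the members had adjusted p-values of at least 0.805 in limma. Within slides the day 3 difference was negative on slide 4 and positive on slides 1 and 3 for all 4 members, from -0.34 to 0.15 for miR-199a-3p. Few arrays stood behind these values, with 2 exposed and 2 vehicle on slide 1, and 1 and 1 on slide 3. Slide 4 had 1 exposed and 2 vehicle arrays of day 3, and the high vehicle replicate 5 was among them. The part of slide in these values was not tested further. The share of spots well above background had a correlation of -0.07 with the members' mean.

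**Figure D4:**
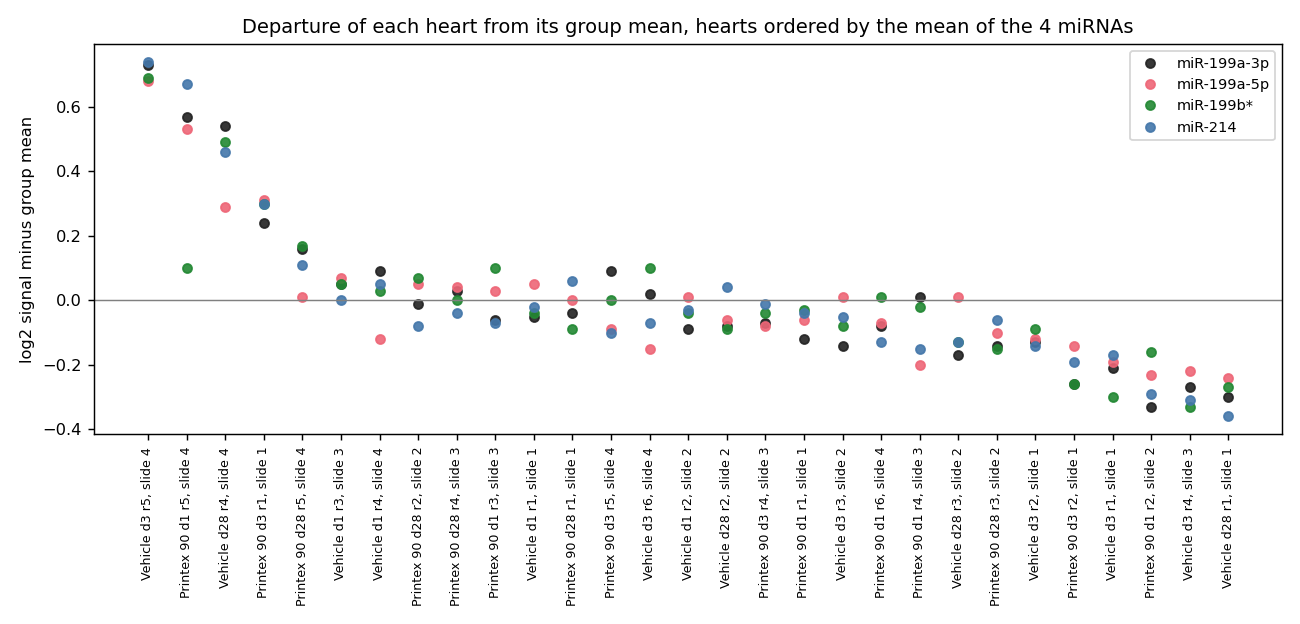
Log2 signal of each member minus its group mean in the 29 hearts, ordered by the mean of the 4 members. In the first 4 hearts the mean lies 0.71, 0.47, 0.45 and 0.29 above the group mean, and in exposed day 1 replicate 5 miR-199b* stays at 0.10.

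In exposed day 1 replicate 5 the members parted. Relative to the group mean miR-199a-3p was higher by 0.57, miR-199a-5p by 0.53 and miR-214 by 0.67, but miR-199b* by 0.10. The log2 ratio of miR-199a-3p over miR-199b* lay 0.57 above its median over all arrays there, and the next highest array had 0.13. A ratio within an array does not depend on the scaling between arrays. In the authors' deposited value table the same array was highest for this ratio, at 0.40 above the median, with the next at 0.13. That table also put it highest for miR-199a-3p over miR-214, at 0.60 with the next at 0.45, where the scanner values gave -0.10. The ratio of miR-199a-3p over miR-199a-5p lay above its median on all 8 arrays of slide 4, by 0.07 to 0.25. The array of exposed day 1 replicate 5 was one of the 4 dimmest, with 19.2% of spots well above background, and the part of brightness in the ratio was not tested.

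**Figure D5:**
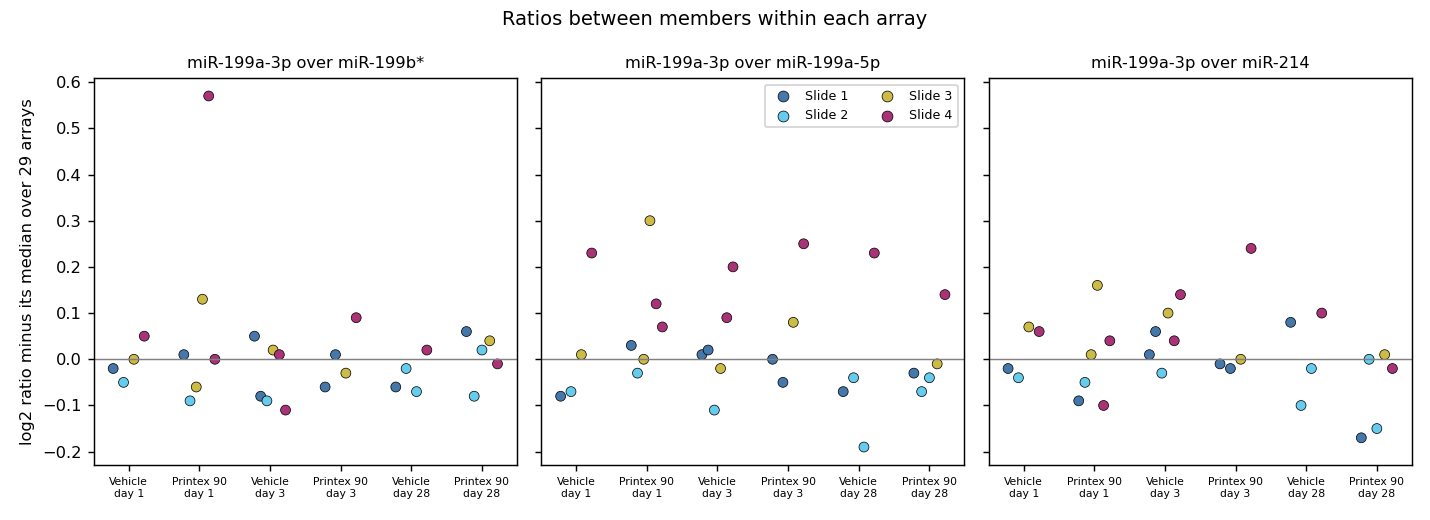
Log2 ratio of miR-199a-3p over each other member, minus the median over 29 arrays, by group and slide. For miR-199a-3p over miR-199b* exposed day 1 replicate 5 lies at 0.57, and every other heart lies between -0.11 and 0.13.

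The miRNAs whose residuals were most like the members' mean, by Pearson correlation over 29 arrays, were miR-127 at 0.90, miR-338-3p at 0.84, let-7e at 0.83, miR-455 at 0.82, miR-103 at 0.82 and miR-676 at 0.81. The median over the 302 other tested miRNAs was 0.12. Spearman correlations for the 6 were 0.78, 0.69, 0.76, 0.69, 0.75 and 0.77, and Pearson's values without the 2 hearts farthest from the middle were 0.83, 0.74, 0.80, 0.73, 0.79 and 0.80. Within single slides they ran from 0.47 to 0.96 for miR-127 and from -0.25 to 0.95 for miR-455. These 6 were picked for their likeness, so the values describe them only. Among them miR-127 was detected on 26 of the 29 arrays, miR-455 on 27 and miR-676 on 23. Their median log2 signals were 5.09, 5.15 and 4.96, where the floor was 4.04. Of the fibroblast list miR-21 had 0.74 (Spearman 0.64, 0.62 without the 2 farthest hearts). The miR-29 arms were mixed, with miR-29c* at 0.52, miR-29a at 0.36, miR-29c at 0.30, miR-29b at 0.05 and miR-29a* at -0.34.

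Markers of other cell types moved in the high hearts. In exposed day 1 replicate 5 the smooth muscle miRNAs miR-143 and miR-145 lay 1.45 and 1.11 above their group means, miR-21 lay 0.63 above and the muscle miRNA miR-133a at -0.45. Other muscle miRNAs moved less there, with miR-1a at 0.04 and miR-208a-3p at -0.11. In vehicle day 3 replicate 5 miR-143 lay 0.49 and miR-145 0.53 above. In vehicle day 28 replicate 4 they lay at -0.08 and 0.07, although the members were high there as well. The smooth muscle level, the mean of miR-143 and miR-145, ran from 8.07 to 9.71 in exposed and from 8.26 to 8.37 in vehicle hearts of day 1. On day 3 it ran from 8.16 to 8.36 in exposed and from 8.12 to 8.84 in vehicle hearts, and on day 28 from 8.04 to 8.41 and from 8.15 to 8.31. The correlation of the members' mean with the mean of each list was 0.66 for smooth muscle (2 of 2 tested), 0.17 for leukocytes (4 of 4) and 0.23 for red cells (4 of 5). It was -0.62 for muscle (5 of 5) and -0.60 for endothelium (2 of 2). Single markers fell without the 2 hearts farthest from the middle, miR-145 from 0.71 to 0.45 and miR-143 from 0.61 to 0.26. In the same way miR-133a went from -0.62 to -0.28, miR-208a-3p from -0.59 to -0.39 and miR-126-5p from -0.56 to -0.41. Spearman correlations were 0.61, 0.38, -0.37, -0.56 and -0.52 in that order. Within single slides miR-133a ran from -0.79 to 0.21 and miR-126-5p from -0.61 to 0.26, while miR-143 ran from 0.35 to 0.65. The leukocyte list was mixed, with 0.69 for miR-223, 0.30 for miR-142-5p, 0.27 for miR-142-3p and -0.55 for miR-150. Of the endothelial arms miR-126-5p had -0.56 but miR-126-3p only -0.11. Muscle markers ran from -0.62 for miR-133a to -0.27 for miR-1a. miR-223, a miRNA of myeloid cells, lay 0.35 above its group mean in vehicle day 3 replicate 5 and between 0.06 and 0.15 above in the other 3 high hearts. miR-126-5p, an endothelial arm, lay at -0.93, -1.18 and -1.11 relative to its group mean in the 3 high hearts of slide 4 and at 0.48 in exposed day 3 replicate 1, while its partner arm miR-126-3p lay between -0.21 and 0.03 in these 4. Each tested marker of these 5 lists was detected on all 29 arrays. The part of other cell types in the members' levels was not tested.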

How the data were processed

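Scans were quantified by the authors with Feature Extraction 10.7.3.1, per the file headers. The deposited scanner files give each spot's processed signal intensity, background-subtracted and on a linear scale, with flags. The deposited value table gives log2 values for 30 samples, with column medians of 5.78 to 5.82. Its scaling and centring are not given in the sources used here, so it served as an alternative.

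Probe signals were spot averages without control and outlying spots. Detection of a probe meant that the share of its spots well above background reached 0.5. Scaling used the 75th percentile over 418 probes found on every array. Signals under 16.5 (log2 4.04) were raised to that value before log2 was taken. Probes detected on 4 or more arrays of some group were averaged per miRNA, which left 306 miRNAs and 621 probes. In limma 3.58.1 (R 4.3.3), 1 mean per group was fitted over 29 arrays, with 13 two-sided contrasts and a threshold of 0.05. The fit was tested on simulated data. Precision is limited by how many arrays there were. Slides were numbered 1 to 4 from the file headers.

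The text names the 4 members, other arms of their genes, miRNAs sharing a seed, the fibroblast list and the 6 miRNAs of highest residual correlation. Members and lists were chosen with earlier results of these data known. Files held no mean pixel signal, so normexp used the median. Alternatives changed scaling, background correction, probe summary, floor, filter, slide block, brightness and the hearts included.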

Additional observations from a re-analysis of the deposited data

Results flagged for a closer look

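Single hearts stood apart from the rest of their group in 8 of 42 checks of the members' levels and ratios, in groups of 4 to 6 hearts. The check compares the gap to the nearest heart with the group's range, and chance gives about 1 in 20 for a single check. The 42 checks were not independent, since they reused the same hearts and members that varied together. The count of 8 therefore cannot be set against that rate. Vehicle day 3 replicate 5 stood above its group for miR-199a-3p at 10.66, miR-199a-5p at 8.08 and miR-214 at 6.84 log2 signal. Exposed day 1 replicate 5 stood above its group for miR-199a-5p at 7.86 and miR-214 at 6.78. Exposed day 3 replicate 1 stood above its group for miR-199a-5p at 7.62. The log2 ratio of miR-199a-3p over miR-199b*, relative to its median, stood apart in exposed day 1 replicate 5 at 0.57. That of miR-199a-3p over miR-214 stood apart in exposed day 3 replicate 5 at 0.24. In the authors' deposited value table that ratio was 0.32 in the same heart, where the highest heart was exposed day 1 replicate 5 at 0.60.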

How the results depend on the processing

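None of the 20 member differences given in the report (4 members in 5 comparisons) was called under an alternative. Scaling moved the median of all miRNAs: on day 1 the exposure difference had a median of -0.07, against 0.11 with the 75th percentile over all probes and -0.24 without scaling. Values follow for member differences whose sign turned. With the 75th percentile over all probes the sign turned for day 1 miR-199b* 0.14, and for mean of days miR-214 -0.021. Without scaling the sign turned for day 1 miR-199a-3p -0.12, miR-199a-5p -0.18, miR-214 -0.098, and for day 3 miR-199a-3p 0.069, miR-199a-5p 0.031, miR-199b* 0.034, miR-214 0.068, and for mean of days miR-214 -0.035, and for vehicle day 28 minus day 1 miR-199a-3p -0.035, miR-199b* -0.0059, miR-214 -0.034. With quantile normalization the sign turned for mean of days miR-214 -0.0048. With normexp the sign turned for day 28 miR-214 0.013. With total gene signal the sign turned for day 1 miR-199b* 0.0084. In the value table the sign turned for day 1 miR-199b* 0.11, and for mean of days miR-214 -0.020. With slide as a fixed block the sign turned for day 1 miR-199a-5p -0.0020, and for day 28 miR-214 0.0061. Without the 4 dimmest arrays the sign turned for day 1 miR-199a-3p -0.055, miR-199a-5p -0.10, miR-214 -0.042, and for mean of days miR-214 -0.069. miR-21 in vehicle day 28 minus day 1 turned to 0.16 with all probes and 0.053 in the value table. With brightness as a covariate the sign turned for day 1 miR-199a-5p -0.0062.

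Leaving out 1 heart also turned signs. On day 1 miR-199a-3p ran from -0.046 to 0.14, miR-199a-5p from -0.094 to 0.057, miR-199b* from -0.049 to 0.0025, miR-214 from -0.040 to 0.15. On day 3 miR-199a-3p ran from -0.13 to 0.092, miR-199a-5p from -0.20 to 0.043, miR-199b* from -0.19 to 0.048, miR-214 from -0.16 to 0.093. On day 28 miR-199a-3p ran from -0.19 to 0.086, miR-199b* from -0.22 to 0.028, miR-214 from -0.13 to 0.14. Averaged over days miR-199a-3p ran from -0.065 to 0.033, miR-214 from -0.036 to 0.060. In vehicle day 28 minus day 1 miR-199a-3p ran from -0.042 to 0.24, miR-214 from -0.014 to 0.26. miR-21 there ran from -0.071 to 0.0097. The smallest member adjusted p in these fits was 0.627.

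Of all miRNAs, vehicle day 28 minus day 1 called 6, against 1 with all probes, 0 without scaling, 2 with quantile normalization, 3 with normexp, 2 in the value table and 5 to 7 under the others. Vehicle day 28 minus day 3 called 2, against 1 with all probes, 0 without scaling, 0 with quantile normalization, 0 with normexp, 1 with the brightest probe, 4 with total gene signal, 1 in the value table, 5 without a filter and 4 with slide as a fixed or random block. Exposed day 28 minus day 1 called 4, against 1 with all probes, 0 without scaling, 1 with quantile normalization, 0 with normexp, 2 with the brightest probe, 1 in the value table, 2 without the 4 dimmest arrays, 5 with total gene signal or without a filter and 6 with slide as a fixed or random block. Exposed day 28 minus day 3 called 1, against 0 without scaling, 0 with quantile normalization, 0 with normexp, 0 with detection on all arrays, and 2 with no filter, with slide as a fixed block and without the 4 dimmest arrays. Leaving out 1 heart gave 3 to 8, 1 to 5, 1 to 4 and 1 to 2 in these comparisons in order. The cause of these shifts was not tested. The floor at the 5th percentile was set to 1, since that percentile was below 0. The unfiltered fit left out 652 miRNAs at the floor on every array, chosen after seeing the data. Each array held a different mouse and the labels pair no mice between groups, so no paired analysis was made. Slide was used as a block instead. Replicate numbers were counted within each group and link no hearts between groups.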
